A study of Mus musculus with 21 samples.

Results

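Immortalized mouse embryonic fibroblasts (MEFs) made to express V5-tagged GCN5 were compared with MEFs made to express LacZ (bacterial beta-galactosidase), both with HSF1 present. The comparison was chosen by label and rests on 6 of the 12 RNA libraries among the 21 samples of the series. The 3 siControl GCN5 libraries came from Hsf1 WT MEFs with stable GCN5 expression that had received 10 nM of control siRNA for 2 days. The 3 siControl LacZ libraries came from Hsf1 WT MEFs with stable LacZ expression and the same control siRNA, dose and time. The other 6 RNA libraries are the same lines after Hsf1-targeting siRNA (siHsf1 GCN5 and siHsf1 LacZ, 3 each, labelled Hsf1 KD), and they are set beside the comparison where they bear on it. The series concerns the effect of HSF1, the transcription factor of the heat-shock response, on transcription by c-MYC.

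GCN5, encoded by Kat2a in the mouse, is a lysine acetyltransferase. It sits in the SAGA and ATAC coactivator complexes, where it acetylates histone H3 at promoters and enhancers, and it also acetylates other proteins, c-MYC among them. Cultured fibroblasts keep a record of the body site they came from in the set of HOX transcription factors they express. Their other hallmark programmes include collagen and matrix production, sterol synthesis and inducible cytokine and interferon genes.

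The labels name 1 line per construct, so GCN5 expression and the identity of the line cannot be told apart. They give neither the promoter of the construct nor the species of its GCN5 sequence, nor whether a line is a clone, nor whether the 3 libraries of a group are separate cultures, so p-values measure the spread between libraries. Depth went with the line, at 3.69 to 3.75 M (mega) gene counts in siControl GCN5 and 7.31 to 8.07 M in siControl LacZ libraries. ERCC spike-in RNA made up 0.968% to 1.45% of the counts in siControl GCN5 and 0.711% to 1.19% in siControl LacZ libraries, a ratio of 1.27 (exact permutation test, two-sided, p = 0.2, where the smallest possible p is 0.1). That test did not pair libraries by replicate number, and the ratios within replicates 1, 2 and 3 were 1.36, 1.22 and 1.26. Summed levels of 10 fibroblast markers were 5750 to 5930 CPM (counts per megacount, TMM-scaled) in siControl GCN5 and 4830 to 5090 CPM in siControl LacZ libraries, with Thy1 and Lum at 0 counts in all 6. Of the 8 that were tested (test given below), 4 were called higher and 2 lower in siControl GCN5. The sum therefore hides members that went opposite ways. The 11 epithelial markers summed to 121 to 142 CPM in siControl GCN5 against 174 to 212 CPM in siControl LacZ libraries, with Epcam, Cldn3, Cldn7, Esrp1 and Krt5 at 0, and 8 endothelial, 10 haematopoietic and 9 skeletal muscle markers stayed at or under 9.08 CPM in each library. The 10 chondrocyte and osteoblast markers summed to 122 to 135 CPM in siControl GCN5 against 84.6 to 86.0 CPM in siControl LacZ libraries. The 10 neural and glial markers summed to 487 to 504 CPM in siControl GCN5 against 495 to 510 CPM in siControl LacZ libraries, and 7 adipocyte markers to 33.3 to 40.7 CPM in siControl GCN5 against 37.8 to 41.6 CPM in siControl LacZ libraries. Of the 5 tested neural and glial markers 2 were called higher and none lower, with log2 fold changes from -0.79 to 1.49. Xist was counted, and Ddx3y, Eif2s3y, Kdm5d and Uty had 0 counts, in each of the 12 libraries, which for a single library allows up to 0.831 CPM. The part of these marker differences in the results was not tested.

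With control siRNA the lines differed in body-position, sterol, matrix and inflammatory genes. HOX genes of the Hoxb and Hoxc clusters and most genes of cholesterol synthesis rose in the GCN5 line, collagen and matrix genes changed in both directions, and some interferon and glycolysis genes fell. Of 12187 genes tested by edgeR's quasi-likelihood test with Benjamini-Hochberg adjustment over all of them, 1170 (9.6%) passed an adjusted p of 0.05. Higher levels in siControl GCN5 than in siControl LacZ were called for 664 genes (5.45%) and lower levels for 506 (4.15%). The median called change was 1.43-fold among higher and 1.37-fold among lower genes, and 143 higher and 101 lower genes changed at least 2-fold. All 3 siControl GCN5 libraries lay on 1 side of all 3 siControl LacZ libraries for 653 of the 664 higher and 491 of the 506 lower calls. The share over all tested genes was 25.7%. The calls were made on these same libraries, so the separation follows in part from the calling and is a description. With every library thinned to the depth of the shallowest one, 944 genes were called. In bulk RNA, fewer cells of a type and less RNA per cell cannot be told apart.

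Scaling by spike-in RNA in place of TMM moved the median of all genes to -0.40 on the log2 scale, and 183 genes (1.5%) were then called, 66 higher (0.542%) and 117 lower (0.96%). The higher share of the calls was therefore 36.1% with spike-in scaling and 56.8% with TMM scaling, and 62 higher and 108 lower genes were called with both. Fold changes below use TMM scaling, so they are relative to the typical gene of the cell, and the value after ± is their standard error. Spike-in scaling left a common biological coefficient of variation of 0.274, and TMM scaling left 0.089.

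**Figure D1:**
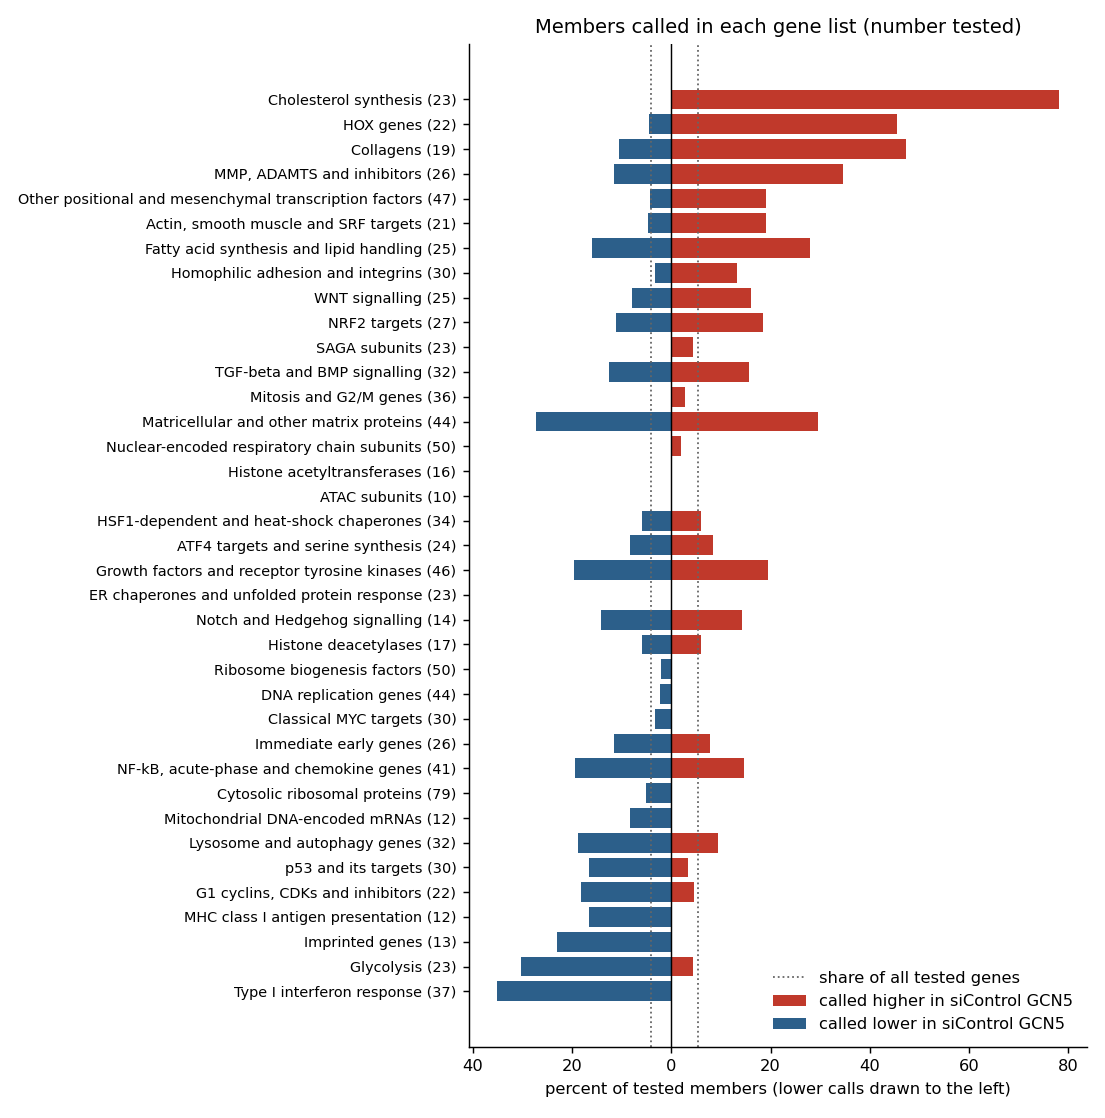
Share of the tested members of each pathway list called higher (red, to the right) or lower (blue, to the left) in siControl GCN5 than in siControl LacZ libraries, in percent, with the number tested in parentheses. Dotted lines mark 5.45% higher and 4.15% lower among all tested genes. Cholesterol synthesis has the longest red bar (78.3%) and the interferon response the longest blue one (35.1%). Calls use TMM scaling.

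The targeted gene itself was close in both lines. Kat2a (chromosome 11, 100704746 to 100712478, GRCm38) stood at 263, 234 and 246 CPM in siControl GCN5 and at 216, 215 and 220 CPM in siControl LacZ libraries. The 3 GCN5 libraries lay above the 3 LacZ libraries by a small step. The log2 fold change was 0.19 ± 0.06 (edgeR adjusted p = 0.051), which missed the threshold, and its sign turned with spike-in scaling (-0.20). Without GCN5 replicate 2, the lowest of its group, the log2 fold change was 0.23 and passed (edgeR adjusted p = 0.046). The 25 neighbouring tested genes of the window that holds Kat2a (99041260 to 100939579) had a median log2 fold change of 0.14. Whether the step in Kat2a is apart from that of its surroundings was not tested. Since the construct may hold a sequence that these Kat2a counts do not take up, they do not test the label. Under siHsf1 the same contrast gave a log2 fold change of 1.00, and the difference between the contrasts passed (edgeR adjusted p = 2.3e-07). Mean Kat2a in the GCN5 line was 248 CPM with either siRNA. The LacZ line averaged 217 CPM with control siRNA but 124 CPM after the Hsf1-targeting one. The contrast thus widened through a lower level in the LacZ line, and what lowered it was not tested.

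Calls among the acetyltransferase complexes around GCN5 were few, as they were among all tested genes (9.6%). Among 23 tested SAGA subunits, 1 rose (4.35%) and 22 did not pass, with a list median of 0.03 on the log2 scale. Eny2, a subunit of the SAGA deubiquitinase module that also serves mRNA export, stood at 126, 119 and 126 CPM in siControl GCN5 against 93.6, 106 and 90.2 CPM in siControl LacZ libraries. The groups did not overlap, and Eny2 rose by TMM scaling with a log2 fold change of 0.35 ± 0.08 (edgeR adjusted p = 0.0028) but not by spike-in scaling (-0.03). None of 10 ATAC subunits passed, nor did any of 16 histone acetyltransferases. Of 17 histone deacetylases, Hdac8 rose and Hdac7 fell (11.8% called, near the share of all tested genes).

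Hsf1 and Myc, the factors the series is about, did not pass either. Hsf1 stood at 137, 121 and 138 CPM in siControl GCN5 against 129, 129 and 135 CPM in siControl LacZ libraries (log2 fold change 0.02 ± 0.08, edgeR adjusted p = 0.93). Myc stood at 130, 108 and 125 CPM in siControl GCN5 against 131, 143 and 148 CPM in siControl LacZ libraries (log2 fold change -0.21 ± 0.08, edgeR adjusted p = 0.095). The Hsf1 groups overlapped, and every GCN5 library lay below the LacZ libraries for Myc. Of 30 classical MYC targets 1 fell (Ldha, lactate dehydrogenase A), and of 50 ribosome biogenesis factors 1 fell (Ddx21, a nucleolar helicase). Of 34 heat-shock chaperones 11.8% were called, near the 9.6% of all tested genes. Among them, Ahsa1, an activator of HSP90, and Hspa13, a microsomal HSP70 relative, rose with log2 fold changes of 0.28 and 0.35, which spike-in scaling turned to -0.09 and -0.06. The small heat-shock proteins Cryab and Hspb1 fell with log2 fold changes of -0.28 and -0.37. The Ahsa1 call was lost without GCN5 replicate 1 (edgeR adjusted p = 0.052) and the Hspb1 call without any 1 of the 6 libraries (edgeR adjusted p = 0.062 to 0.18). The Cryab call was lost without LacZ replicate 2 (0.13) and without GCN5 replicate 1, 2 or 3 (0.076, 0.082 and 0.084).

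HOX genes differed between the lines cluster by cluster. They encode homeodomain transcription factors in 4 clusters, whose order along the chromosome follows the order of their expression along the body axes. Of 39 HOX genes counted, 22 were tested, and the other 17 were at low counts. Of the tested genes 10 rose and 1 fell (9 rose with spike-in scaling), which is 50% called beside 9.6% of all tested genes. Since some passed the filter on low counts only where they were high, that share is a description.

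The Hoxb and Hoxc clusters were low in the LacZ line and rose in the GCN5 line. Summed over its 10 members, Hoxb stood at 37.6, 43.7 and 40.1 CPM in siControl GCN5 and at 3.85, 3.16 and 2.60 CPM in siControl LacZ libraries. Hoxc, with 9 members, summed to 25.4, 20.9 and 24.9 CPM in siControl GCN5 against 2.89, 2.15 and 2.60 CPM in siControl LacZ libraries. The 3 tested Hoxb and 4 tested Hoxc genes were called higher. All of them except Hoxb9 had under 10 counts in every siControl LacZ library and so reached the filter on low counts through other libraries, and the number called among those tested is a description only.

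Hoxb9, a posterior gene that patterns the thorax (chromosome 11 from 96271330 to 96276595), stood at 26.8, 32.8 and 28.0 CPM in siControl GCN5 against 3.03, 2.40 and 2.23 CPM in siControl LacZ libraries. The groups lay far apart, and the log2 fold change was 3.51 ± 0.19 (11.4-fold, edgeR adjusted p = 1.2e-12). Hoxb6, in the same cluster, stood at 4.87, 5.16 and 4.15 CPM in siControl GCN5 against 0.138, 0.379 and 0.124 CPM in siControl LacZ libraries. Its log2 fold change was 4.33 ± 0.64 (edgeR adjusted p = 8.6e-07). Hoxb5 had 26 counts over the 3 siControl GCN5 libraries and 2 over the deeper siControl LacZ libraries, a depth-adjusted ratio of 27.5 with a 95% counting interval of 6.88 to 239. Hoxb4 and Hoxb3, which were below the filter, had 17 and 7 counts in siControl GCN5 and 0 in siControl LacZ libraries. Hoxb8 and Hoxb7, also below it, had 15 and 6 counts in siControl GCN5 against 5 and 3 in siControl LacZ libraries. The depth-adjusted ratio of Hoxb7 was 4.23, and its 95% counting interval of 0.903 to 26.1 took in equal levels. These intervals cover counting error only.

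In the Hoxc cluster the same pattern held at lower levels. Hoxc4 stood at 8.92, 6.24 and 5.54 CPM in siControl GCN5 and at 0.826, 0.506 and 0.868 CPM in siControl LacZ libraries (log2 fold change 3.20 ± 0.39, edgeR adjusted p = 8.6e-07). Hoxc10, a hindlimb and lumbar gene, stood at 4.87, 4.34 and 4.98 CPM in siControl GCN5 and at 0.413, 0.253 and 0.496 CPM in siControl LacZ libraries (log2 fold change 3.54 ± 0.50). Hoxc6 stood at 7.57, 3.26 and 6.64 CPM in siControl GCN5 against 1.10, 0.885 and 0.992 CPM in siControl LacZ libraries (log2 fold change 2.53 ± 0.37). None of these groups overlapped. Hoxc9 had 40 counts in siControl GCN5 and 3 in siControl LacZ libraries, a depth-adjusted ratio of 28.2 (95% counting interval 8.98 to 142). Hoxc11 and Hoxc13 had 7 and 6 counts in siControl GCN5 and 0 in siControl LacZ libraries. Hoxc8 and Hoxc5, below the filter too, had 9 and 7 counts in siControl GCN5 against 4 and 3 in siControl LacZ libraries. Their counts in siControl GCN5 replicates 1, 2 and 3 were 0, 6 and 3 for Hoxc8 and 2, 0 and 5 for Hoxc5.

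The tested Hoxa and Hoxd genes were counted in both lines, and 4 of them were called. Hoxd10 stood at 32.4, 33.6 and 39.0 CPM in siControl GCN5 against 7.57, 7.84 and 6.69 CPM in siControl LacZ libraries (log2 fold change 2.25 ± 0.14, edgeR adjusted p = 2.2e-11). Hoxd11, next to it, stood at 5.68, 8.68 and 9.14 CPM in siControl GCN5 against 2.20, 3.04 and 1.36 CPM in siControl LacZ libraries (log2 fold change 1.82 ± 0.31). Hoxd8, Hoxd9 and Hoxd13, on either side of that pair, did not pass, with log2 fold changes of -0.47, -0.39 and -0.32. Hoxa5 stood at 20.5, 28.8 and 26.0 CPM in siControl GCN5 against 5.09, 6.83 and 6.57 CPM in siControl LacZ libraries, a log2 fold change of 2.02 ± 0.18 (edgeR adjusted p = 1.6e-08). Hoxa10 went the other way, with 27.6, 34.5 and 28.5 CPM in siControl GCN5 against 42.4, 48.2 and 37.3 CPM in siControl LacZ libraries, and fell with a log2 fold change of -0.50 ± 0.11 (edgeR adjusted p = 0.0039). The other 8 tested Hoxa genes did not pass, though Hoxa9 passed without GCN5 replicate 1 (log2 fold change 0.46, edgeR adjusted p = 0.025) and Hoxa11 without LacZ replicate 3 (log2 fold change -0.48, edgeR adjusted p = 0.049). Summed Hoxa levels were 130, 167 and 144 CPM in siControl GCN5 against 125, 142 and 120 CPM in siControl LacZ libraries.

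**Figure D2:**
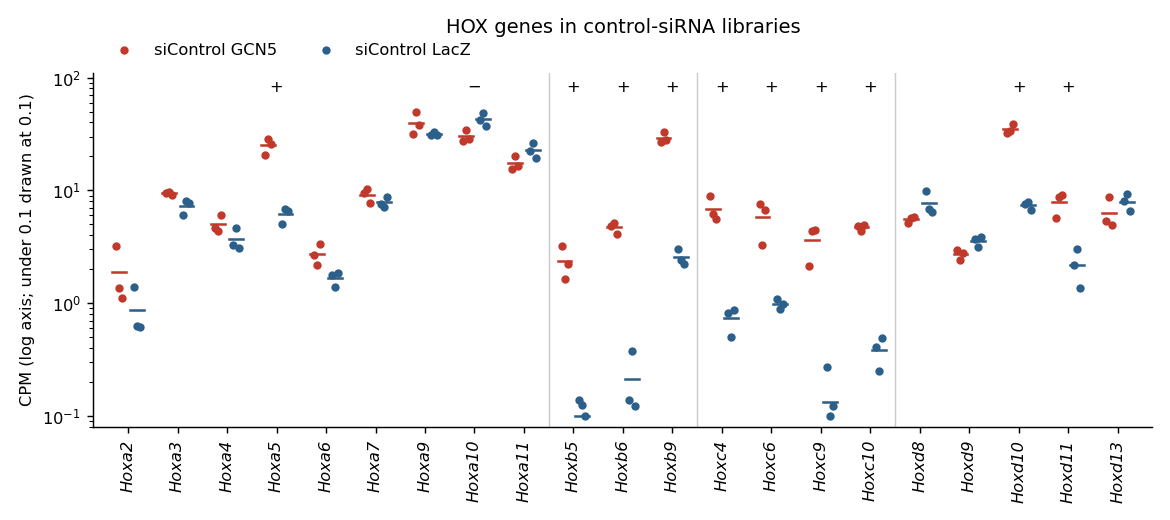
CPM (TMM-scaled, log axis) of 21 tested HOX genes in each siControl GCN5 (red, left) and siControl LacZ (blue, right) library, with points for libraries and short bars for means; plus and minus signs mark genes called higher and lower, and grey lines separate the Hoxa, Hoxb, Hoxc and Hoxd clusters. All 7 tested Hoxb and Hoxc genes are called higher, whereas most Hoxa genes overlap or nearly touch.

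HOX partners and other positional factors showed fewer calls. Of 47 tested genes for positional and mesenchymal transcription factors 9 rose and 2 fell, and the list median of 0.23 turned to -0.17 with spike-in scaling. That is 23.4% called, beside 9.6% of all tested genes. Meis1, a homeodomain cofactor of HOX proteins, stood at 5.68, 8.14 and 4.71 CPM in siControl GCN5 against 0.688, 0.379 and 0.0 CPM in siControl LacZ libraries (log2 fold change 4.08 ± 0.58, edgeR adjusted p = 1.3e-06). Six2, a homeodomain factor of kidney and limb mesenchyme, and Foxp2, a forkhead repressor, rose with log2 fold changes of 3.38 ± 0.76 and 2.62 ± 0.54. Dlx1 rose too (log2 fold change 1.47 ± 0.30), as did Six4, Pbx3, Mecom, Prrx1 and Sox9, and Tbx15 and Scx fell.

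The HOX pattern was also present between the same 2 lines under siHsf1. Those libraries shared the filter and the fit with the comparison, and any lasting difference between the lines would recur in them. They are therefore no independent support, and the counts are a description. Between siHsf1 GCN5 and siHsf1 LacZ libraries, 10 of the 22 tested HOX genes were called higher and 4 lower. Hoxb9 had a log2 fold change of 3.59 there, Hoxd10 of 1.98, Hoxa5 of 1.74, Hoxc10 of 3.49 and Hoxa10 of -0.76. In that contrast 22.3% of all tested genes were called higher and 22.6% lower.

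Most genes of cholesterol synthesis rose with TMM scaling. The pathway builds cholesterol from acetyl-CoA through mevalonate, squalene and lanosterol, and its genes share control by SREBP2, a factor that sterols hold back in the endoplasmic reticulum. Of 23 tested genes of the pathway and its regulators 18 rose, none fell and 5 did not pass (Mvk, Pmvk, Tm7sf2, Dhcr7 and Ebp). That is 78.3% called against 9.6% of all tested genes, with a median log2 fold change of 0.63.

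The promoters of 4 called members are shown with matches to the motifs of known regulators of the pathway. They are the 4 members with the smallest p among those with an entry in the RefSeq promoter table (16 of 23 had one), and each spans 250 bases before to 50 bases after the gene start on GRCm38.p6. Cyp51 is at chr5:4104648-4104947 (minus strand), Msmo1 at chr8:64733529-64733828 (minus), Insig1 at chr5:28071162-28071461 (plus) and Hmgcs1 at chr13:119690101-119690400 (plus). Capitals mark CCAAT, the box read by NF-Y, which appears as ATTGG when on the other strand, and TCACNCCAC, the core of the sterol regulatory element, with both strands searched.
Cyp51: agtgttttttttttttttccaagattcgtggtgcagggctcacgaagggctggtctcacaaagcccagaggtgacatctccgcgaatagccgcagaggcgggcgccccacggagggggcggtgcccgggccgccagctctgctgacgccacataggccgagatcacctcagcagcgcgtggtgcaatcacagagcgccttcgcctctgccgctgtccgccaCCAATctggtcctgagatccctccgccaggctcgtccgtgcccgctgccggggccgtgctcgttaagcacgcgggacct
Msmo1: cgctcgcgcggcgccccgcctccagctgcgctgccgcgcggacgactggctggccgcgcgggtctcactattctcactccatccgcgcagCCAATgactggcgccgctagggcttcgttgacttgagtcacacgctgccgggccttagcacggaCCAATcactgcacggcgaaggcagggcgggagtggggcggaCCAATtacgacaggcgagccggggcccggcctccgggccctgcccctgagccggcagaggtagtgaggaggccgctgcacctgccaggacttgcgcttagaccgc
Insig1: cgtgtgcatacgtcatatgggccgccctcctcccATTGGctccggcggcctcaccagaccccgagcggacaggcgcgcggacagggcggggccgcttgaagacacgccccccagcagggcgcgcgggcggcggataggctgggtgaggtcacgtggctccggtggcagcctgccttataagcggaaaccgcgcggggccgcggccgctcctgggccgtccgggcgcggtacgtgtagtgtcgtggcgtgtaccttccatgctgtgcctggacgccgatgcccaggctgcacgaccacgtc
Hmgcs1: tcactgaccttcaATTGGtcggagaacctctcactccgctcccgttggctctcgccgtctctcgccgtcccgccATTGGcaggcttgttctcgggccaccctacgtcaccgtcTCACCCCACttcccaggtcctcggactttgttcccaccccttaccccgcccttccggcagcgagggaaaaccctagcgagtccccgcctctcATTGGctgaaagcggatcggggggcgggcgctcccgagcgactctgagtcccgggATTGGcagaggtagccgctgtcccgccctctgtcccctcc

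A CCAAT box lay in 15 of the 16 cholesterol promoters with an entry, and 11 of those 15 belong to genes called higher. A box was held by 37.4% of all 32851 promoters. The sterol element core lay in 408 of all promoters (1.24%) and in 1 of the 16, that of Hmgcs1, 137 bases before the start. No matches of the 2 motifs overlapped in the 4 promoters shown. These are matches of letters in a window and not sites of binding.

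Enzymes from the early and the late steps of the pathway were among the called genes. Hmgcs1, which makes HMG-CoA, stood at 74.1, 82.5 and 78.3 CPM in siControl GCN5 and at 47.6, 50.1 and 49.1 CPM in siControl LacZ libraries (log2 fold change 0.68 ± 0.09, edgeR adjusted p = 7e-06). Fdps, farnesyl diphosphate synthase, stood at 101, 125 and 114 CPM in siControl GCN5 against 63.7, 74.3 and 63.3 CPM in siControl LacZ libraries (log2 fold change 0.75 ± 0.09). Sqle, the squalene epoxidase, stood at 113, 134 and 130 CPM in siControl GCN5 against 72.9, 79.3 and 73.4 CPM in siControl LacZ libraries (log2 fold change 0.74 ± 0.07, edgeR adjusted p = 1.3e-07). In none of these genes did the groups overlap.

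Past lanosterol, Cyp51, the lanosterol demethylase, stood at 85.7, 86.3 and 74.7 CPM in siControl GCN5 and at 39.1, 43.8 and 45.2 CPM in siControl LacZ libraries (log2 fold change 0.94 ± 0.09, 1.92-fold, edgeR adjusted p = 3.6e-08). Msmo1, the next demethylating enzyme, stood at 77.6, 80.9 and 80.6 CPM in siControl GCN5 against 43.9, 45.9 and 42.1 CPM in siControl LacZ libraries (log2 fold change 0.86 ± 0.10). The GCN5 libraries were higher for both enzymes with no overlap. Regulators rose with the enzymes, among them Srebf2, which encodes SREBP2, and Insig1, a sterol-sensing retention factor, at 30, 31.5 and 32.9 CPM in siControl GCN5 against 17.1, 18.7 and 17.4 CPM in siControl LacZ libraries (log2 fold change 0.83 ± 0.12, edgeR adjusted p = 5.3e-05). Other called genes were Fdft1, Nsdhl, Stard4, Idi1, Mvd, Hsd17b7, Sc5d and Lss.

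With spike-in scaling none of the 23 was called, and their median was 0.19 against -0.40 for all genes. Of the 18 genes called with TMM, Lss and Sc5d turned below 0 (-0.04 and -0.06) with spike-in scaling. In the siHsf1 libraries, 17 of the 23 were called higher and 1 lower in the GCN5 line. In that contrast 22.3% of all tested genes were called higher and 22.6% lower.

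**Figure D3:**
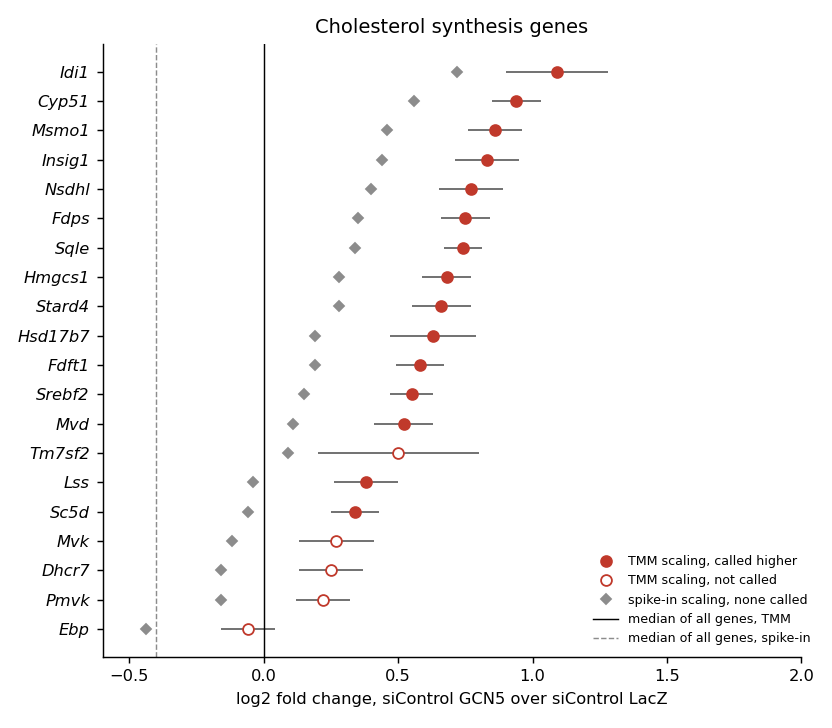
Log2 fold change of 20 of the 23 tested cholesterol genes, siControl GCN5 over siControl LacZ, with TMM scaling (circles, filled where called, bars are standard errors) and with spike-in scaling (grey diamonds, none called). Lines mark the median of all tested genes, which is at 0 with TMM and at -0.40 (dashed) with spike-in scaling. With TMM 15 of the 20 drawn are called higher, and with spike-in scaling every diamond except that of Ebp lies to the right of the dashed line.

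Fatty acid and lipid genes were called in both directions. Of 25 tested, 7 rose and 4 fell, with a list median of 0.13 that turned to -0.27 with spike-in scaling. That is 44.0% called, beside 9.6% of all tested genes. The genes that rose were the synthetic, elongating and desaturating enzymes Scd2, Acly, Fasn, Scd1, Elovl6, Fads2 and Fads1. Scd2, a stearoyl-CoA desaturase, stood at 752, 682 and 697 CPM in siControl GCN5 and at 431, 395 and 443 CPM in siControl LacZ libraries (log2 fold change 0.75 ± 0.09, edgeR adjusted p = 5.1e-05). Fasn, fatty acid synthase, stood at 533, 482 and 495 CPM in siControl GCN5 against 368, 296 and 409 CPM in siControl LacZ libraries (log2 fold change 0.49 ± 0.08), and Acly, which supplies cytosolic acetyl-CoA, had a log2 fold change of 0.37 ± 0.07 that turned to -0.02 with spike-in scaling. Abca1, the exporter that moves cholesterol out of cells, fell. It stood at 16.0, 16.8 and 16.3 CPM in siControl GCN5 against 35.8, 29.0 and 31.9 CPM in siControl LacZ libraries, well apart (log2 fold change -0.97 ± 0.12, edgeR adjusted p = 2.4e-06). Cebpd, Plin2 and Dgat2, which makes triglycerides, were the other genes that fell.

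Collagens and other matrix genes changed often, in both directions. Of 19 tested collagens 9 rose and 2 fell (57.9% called), with a list median of 0.35 that turned to -0.03 with spike-in scaling. Of 44 matricellular and other matrix genes 13 rose and 12 fell (56.8% called), with a median of 0.14 (-0.27 with spike-in scaling). Both shares stand beside 9.6% of all tested genes. With spike-in scaling, which called 1.5% of all tested genes, 2 collagens were called higher and 1 lower. In the matricellular list that scaling called 1 gene higher and 4 lower.

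The 3 chains of collagen VI, a microfibril that surrounds cells, did not move together. Col6a1 stood at 771, 860 and 824 CPM in siControl GCN5 against 443, 415 and 465 CPM in siControl LacZ libraries (log2 fold change 0.89 ± 0.07, edgeR adjusted p = 1.4e-09). Col6a2 (chromosome 10, 76595756 to 76623625), its neighbour on the chromosome, stood at 407, 433 and 423 CPM in siControl GCN5 against 183, 167 and 193 CPM in siControl LacZ libraries (log2 fold change 1.21 ± 0.07, edgeR adjusted p = 3.3e-12). Both chains were higher in every GCN5 library. Col6a3, the third chain, stood at 18.4, 18.7 and 19.1 CPM in siControl GCN5 and at 55.0, 43.0 and 59.6 CPM in siControl LacZ libraries, and fell (log2 fold change -1.49 ± 0.13, edgeR adjusted p = 1.7e-08). Per length, the authors' FPKM averaged 202 ± 10.8 for Col6a1, 71.6 ± 2.17 for Col6a2 and 1.69 ± 0.0325 for Col6a3 in siControl GCN5 libraries (SD, n = 3). In siControl LacZ libraries the FPKM averaged 109 ± 6 for Col6a1, 31.0 ± 2.17 for Col6a2 and 4.76 ± 0.771 for Col6a3 (SD, n = 3).

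Several other collagens rose. Col3a1, the collagen of extensible tissues, stood at 29.7, 39.1 and 35.4 CPM in siControl GCN5 and at 9.49, 10.8 and 11.3 CPM in siControl LacZ libraries (log2 fold change 1.72 ± 0.15, edgeR adjusted p = 8.4e-09). Col5a3 stood at 80, 80.3 and 83.1 CPM in siControl GCN5 against 27.9, 26.3 and 29.1 CPM in siControl LacZ libraries (log2 fold change 1.54 ± 0.10). Col1a1 and Col1a2, the 2 chains of collagen I, rose as well, and so did Col11a1, whereas Col4a2 of the basement membrane fell. Col3a1, Col1a1 and Col1a2 also count among the 10 fibroblast markers whose sum was higher in the GCN5 libraries, and the part of that difference in the matrix results was not tested.

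Among matrix genes outside the collagens, Tnc, the wound matrix protein tenascin C, stood at 11.6, 14.7 and 16.3 CPM in siControl GCN5 and at 4.13, 4.43 and 6.57 CPM in siControl LacZ libraries (log2 fold change 1.48 ± 0.20, edgeR adjusted p = 1e-05). Ltbp2, a latent TGF-beta binding protein, and Wisp2, a CCN family member, rose with log2 fold changes of 0.63 ± 0.07 and 0.87 ± 0.11. Tgfbi, a secreted adhesion protein, stood at 28.4, 30.4 and 36.8 CPM in siControl GCN5 against 64.8, 61.4 and 60.6 CPM in siControl LacZ libraries, and fell (log2 fold change -0.97 ± 0.11, edgeR adjusted p = 8.5e-07). Fmod, a collagen-binding proteoglycan, fell with a log2 fold change of -1.53 ± 0.26. Mgp, Ogn, Fbln1 and Efemp1 also fell, and Bgn, Postn, Has2 and Vcan rose.

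Of 26 genes for matrix proteases and their inhibitors 9 rose and 3 fell, with a median of 0.16 (-0.23 with spike-in scaling). That is 46.2% called, beside 9.6% of all tested genes, and spike-in scaling called 1 higher and none lower. Mmp9, gelatinase B, stood at 19.7, 20.6 and 23.3 CPM in siControl GCN5 against 5.37, 5.57 and 5.58 CPM in siControl LacZ libraries (log2 fold change 1.94 ± 0.16, edgeR adjusted p = 8.4e-09). Mmp3, Serpinf1 and Adamts9 rose with log2 fold changes of 1.42 ± 0.25, 1.39 ± 0.26 and 1.43 ± 0.28. Of 21 smooth muscle and SRF target genes 4 rose and 1 fell (23.8% called). Acta2, smooth muscle actin and a mark of contractile fibroblasts, stood at 33.3, 39.6 and 37.1 CPM in siControl GCN5 and at 11.3, 12.3 and 12 CPM in siControl LacZ libraries (log2 fold change 1.63 ± 0.14, edgeR adjusted p = 2.1e-08). Myl9, a light chain of contractile myosin, rose with a log2 fold change of 0.92 ± 0.21. Its call was lost with counts thinned to the shallowest library (log2 fold change 0.7, edgeR adjusted p = 0.08).

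**Figure D4:**
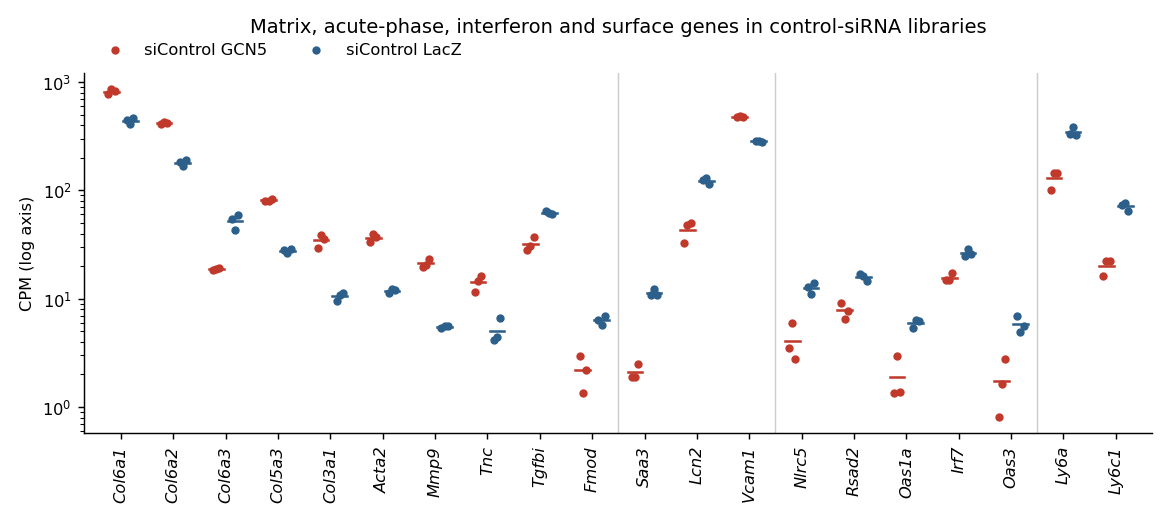
CPM (TMM-scaled, log axis) of called genes in each siControl GCN5 (red, left) and siControl LacZ (blue, right) library, with short bars for means; grey lines separate matrix and contractile, acute-phase and adhesion, antigen presentation and interferon, and surface genes. Col6a1 and Col6a2 are higher and Col6a3 is lower in the GCN5 libraries, and Saa3, at 1.89 to 2.49 CPM in siControl GCN5 against 10.9 to 12.4 CPM in siControl LacZ libraries, has the widest gap among the lower genes drawn.

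Interferon-stimulated genes, the antiviral set that type I interferon induces, fell in part and none rose. Of 37 tested, 13 fell and 24 did not pass, 35.1% called against 4.15% lower among all tested genes. The median log2 fold change was -0.39. With spike-in scaling 4 were called lower and none higher, beside 0.96% lower among all tested genes. The median was then -0.77 against -0.40 for all tested genes. Rsad2, the antiviral enzyme viperin, stood at 9.19, 6.51 and 7.75 CPM in siControl GCN5 against 16.8, 16.1 and 14.6 CPM in siControl LacZ libraries (log2 fold change -1.01 ± 0.16, edgeR adjusted p = 8.8e-05). Irf7, the transcription factor that amplifies interferon production, stood at 14.9, 14.9 and 17.2 CPM in siControl GCN5 against 25, 28.5 and 25.9 CPM in siControl LacZ libraries (log2 fold change -0.76 ± 0.13, edgeR adjusted p = 0.00016). The oligoadenylate synthetases Oas1a and Oas3, sensors of double-stranded RNA, fell with log2 fold changes of -1.63 ± 0.29 and -1.73 ± 0.32.

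Antigen presentation by MHC class I had 2 lower genes of 12 and none higher (16.7% called, beside 9.6% of all tested genes). With spike-in scaling 1 was called lower. Nlrc5, the transactivator of MHC class I genes, stood at 3.51, 5.97 and 2.77 CPM in siControl GCN5 against 12.8, 11.1 and 13.9 CPM in siControl LacZ libraries (log2 fold change -1.62 ± 0.24, edgeR adjusted p = 1.6e-05). B2m, the invariant light chain, fell by less, with a log2 fold change of -0.31 ± 0.06. Under siHsf1 all 37 interferon genes were called lower in the GCN5 line, with a median of -2.76, beside 22.6% lower among all tested genes.

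NF-kB, acute-phase and chemokine genes were mixed, with 6 higher and 8 lower of 41 tested and a median of -0.01. That is 34.1% called, beside 9.6% of all tested genes. Spike-in scaling called 3 lower and none higher, with a median of -0.45. Saa3 (chromosome 7, 46711998 to 46715676), an acute-phase serum amyloid, stood at 1.89, 1.90 and 2.49 CPM in siControl GCN5 and at 10.9, 12.4 and 10.9 CPM in siControl LacZ libraries. It was low in every GCN5 library and its level was 0.185-fold that of LacZ libraries (log2 fold change -2.43 ± 0.24, edgeR adjusted p = 1.3e-08). Lcn2, the iron-sequestering lipocalin that is often induced beside it, stood at 33.0, 47.8 and 49.8 CPM in siControl GCN5 against 124, 131 and 114 CPM in siControl LacZ libraries (log2 fold change -1.50 ± 0.11, edgeR adjusted p = 8.5e-09). The chemokines Ccl2, Ccl7, Ccl20, Cxcl1 and Cxcl2 fell with them, as did the growth factor Csf1.

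Other members of the list rose. Vcam1, an adhesion receptor for leukocytes, stood at 478, 484 and 472 CPM in siControl GCN5 and at 288, 289 and 280 CPM in siControl LacZ libraries (log2 fold change 0.74 ± 0.07, edgeR adjusted p = 2.1e-08). The membrane-bound chemokine Cx3cl1 rose with a log2 fold change of 0.41 ± 0.07, as did Birc3, Il33, Ccl5 and Nfkb1.

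Of 23 glycolysis genes 7 fell, 1 rose and 15 did not pass, with a median of -0.15. That is 34.8% called, beside 9.6% of all tested genes. Spike-in scaling called 1 lower and none higher, with a median of -0.54. Tpi1, triosephosphate isomerase, stood at 1060, 1190 and 1180 CPM in siControl GCN5 against 1430, 1590 and 1410 CPM in siControl LacZ libraries (log2 fold change -0.37 ± 0.06, edgeR adjusted p = 0.00011). Ldha and Aldoa each fell with a log2 fold change of -0.34 ± 0.06, and the muscle enolase Eno3 with -1.87 ± 0.31. Ldhb, the other lactate dehydrogenase subunit, was the gene that rose.

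A few p53 targets and inhibitors of the G1 phase fell. Of 30 p53 genes 5 fell and 1 rose, and of 22 genes for G1 cyclins, kinases and inhibitors 4 fell and 1 rose. The called shares were 20.0% and 22.7%, beside 9.6% of all tested genes. Spike-in scaling called 1 gene lower and none higher in each list. Cdkn1a, the p21 inhibitor and a classic p53 target, stood at 52.4, 50.7 and 67.3 CPM in siControl GCN5 and at 91.5, 85.4 and 71.9 CPM in siControl LacZ libraries (log2 fold change -0.55 ± 0.11, edgeR adjusted p = 0.0024). The related inhibitors Cdkn1b and Cdkn1c fell with log2 fold changes of -0.56 ± 0.14 and -1.12 ± 0.28, calls that were lost without GCN5 replicate 3 for Cdkn1b (edgeR adjusted p = 0.05) and without GCN5 replicate 1 for Cdkn1c (0.073). Plk2 and Perp, both p53 targets, fell with log2 fold changes of -0.46 ± 0.06 and -1.10 ± 0.21. Proliferation genes themselves had almost no calls, with 1 of 36 mitosis genes higher and 1 of 44 DNA replication genes lower.

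Several signalling families each held a few called genes. In Notch and Hedgehog signalling 2 of 14 rose and 2 fell, the higher being the Notch targets Hey1 and Hes1. Hey1 stood at 7.03, 6.78 and 6.92 CPM in siControl GCN5 against 1.38, 2.02 and 0.868 CPM in siControl LacZ libraries (log2 fold change 2.27 ± 0.34, edgeR adjusted p = 3.5e-05). Hes1 stood at 18.7, 15.7 and 20.2 CPM in siControl GCN5 against 5.23, 9.36 and 5.83 CPM in siControl LacZ libraries (log2 fold change 1.41 ± 0.23). Wnt4, a secreted WNT ligand, stood at 5.41, 5.43 and 4.71 CPM in siControl GCN5 against 13.3, 17.3 and 13.5 CPM in siControl LacZ libraries and fell (log2 fold change -1.50 ± 0.19), whereas the R-spondin receptor Lgr6 rose (log2 fold change 0.78 ± 0.09). Both Notch targets were higher and Wnt4 was lower in every GCN5 library. WNT signalling as a whole had 4 higher and 2 lower of 25, TGF-beta and BMP signalling 5 and 4 of 32, and growth factors and receptor tyrosine kinases 9 and 9 of 46. The called shares were 28.6% for Notch and Hedgehog, 24.0% for WNT, 28.1% for TGF-beta and BMP and 39.1% for growth factor genes, beside 9.6% of all tested genes. Id2 rose (log2 fold change 0.51) and Bmp4 fell (-0.71), Vegfc rose (0.90) and Epha2 fell (-0.40).

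The lists of ribosomal protein, respiratory chain, mitochondrial and ER chaperone genes were each called below the 9.6% of all tested genes. Of 79 cytosolic ribosomal protein genes 4 fell (5.06%, beside 4.15% lower among all tested genes), of 50 nuclear-encoded respiratory chain genes 1 rose, of 12 mitochondrial mRNAs 1 fell, and none of 23 ER chaperone and unfolded protein response genes passed. The lists of lysosome (3 higher, 6 lower of 32), NRF2 (5 and 3 of 27), ATF4 (2 and 2 of 24), immediate early (2 and 3 of 26), and adhesion genes (4 and 1 of 30) were mixed, with 16.7% to 29.6% called, and of 13 imprinted genes 3 fell and none rose.

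Ly6a and Ly6c1, chosen by size of change, were among the largest falls. Ly6a, the stem cell antigen Sca-1, stood at 102, 145 and 144 CPM in siControl GCN5 against 332, 383 and 323 CPM in siControl LacZ libraries (log2 fold change -1.41 ± 0.10, edgeR adjusted p = 3.2e-07). Ly6c1, a related surface protein from the same cluster on chromosome 15, stood at 16.2, 22.5 and 22.1 CPM in siControl GCN5 against 72.8, 77.3 and 64.7 CPM in siControl LacZ libraries (log2 fold change -1.82 ± 0.13, edgeR adjusted p = 1.6e-10). Both were low in every GCN5 library. Other protein-coding genes with the largest falls were Sned1 (log2 fold change -2.23), Capn6 (-1.97), Als2cl (-1.75), Podxl (-1.48), Mbnl3 (-1.43) and Neurl1b (-1.42).

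Srsf1, an SR splicing factor (chromosome 11 from 88046763 to 88053757), stood at 79.8, 105 and 94.4 CPM in siControl GCN5 against 12.7, 13.9 and 11.4 CPM in siControl LacZ libraries (log2 fold change 2.88 ± 0.11, 7.34-fold, edgeR adjusted p = 3.6e-15). Rbmx, an X-linked hnRNP, stood at 132, 133 and 127 CPM in siControl GCN5 against 32.7, 34.8 and 32.0 CPM in siControl LacZ libraries (log2 fold change 1.98 ± 0.08, edgeR adjusted p = 3.6e-15). Hnrnph3, another splicing regulator, rose with a log2 fold change of 2.44 ± 0.17. The lines were far apart for all of them. Such genes have processed copies elsewhere in the genome, and the handling of shared reads is not given in the sources used here, so these levels are uncertain. The same holds for LOC105242736, annotated as a histone H3.3-like gene, with a log2 fold change of 2.81. Rps27rt, a ribosomal protein retrogene, stood at 195, 139 and 191 CPM in siControl GCN5 and at 22.6, 42.8 and 68.1 CPM in siControl LacZ libraries, and its call (log2 fold change 1.97 ± 0.44, edgeR adjusted p = 0.027) was lost in 8 of 22 alternatives, among them the fits without LacZ replicate 1 (adjusted p = 0.068), without LacZ replicate 2 (0.064) and without GCN5 replicate 1, 2 or 3 (0.091, 0.051 and 0.085). Camta1, Gm15056 and Acsbg1 were also among the largest rises, with log2 fold changes of 1.96, 1.93 and 1.80.

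Pseudogenes were called higher more often than lower. Of 664 tested, 54 rose (8.13%) and 4 fell (0.602%), beside 5.45% and 4.15% of all tested genes. Among the called genes that changed at least 2-fold, 33 of 143 higher and 1 of 101 lower genes were pseudogenes. Their share of all counts, without the rRNA pseudogene Rn18s-rs5, was 1.02% to 1.08% in siControl GCN5 and 0.886% to 1.04% in siControl LacZ libraries.

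The changes of pseudogenes were set beside those of the protein-coding genes they copy. For 30 higher pseudogenes whose description names a protein, 29 source genes were tested, of which 1 rose (Aph1a) and 28 did not pass. The pseudogenes were chosen for being called higher and the sources were not, so their sizes of change are given as a description. Gm14150, a copy of the tubulin gene Tuba1b, stood at 54.6, 77.6 and 73.4 CPM in siControl GCN5 and at 12, 14.4 and 12.4 CPM in siControl LacZ libraries, while Tuba1b stood at 1310, 1390 and 1360 CPM in siControl GCN5 against 1250, 1330 and 1300 CPM in siControl LacZ libraries. Gm12844, a copy of Rhoa, stood at 9.46, 11.1 and 10.8 CPM in siControl GCN5 and at 0.688, 1.26 and 1.12 CPM in siControl LacZ libraries (log2 fold change 3.32 ± 0.33), and Rhoa itself had a log2 fold change of 0.11. The groups lay far apart for both pseudogenes and overlapped for Tuba1b. Gm6900, Gm5526 and Gm7308, the 3 largest rises among called non-coding genes averaging 2 or more in log2 CPM, had log2 fold changes of 3.21 ± 0.23, 3.04 ± 0.19 and 2.45 ± 0.24. Reads of a pseudogene and its source can be assigned to either, so these values are uncertain. Of the 54, 46 were also called higher in the GCN5 line under siHsf1, beside 22.3% of all tested genes. The 54 were picked as higher between the same 2 lines, so that number is a description.

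**Figure D5:**
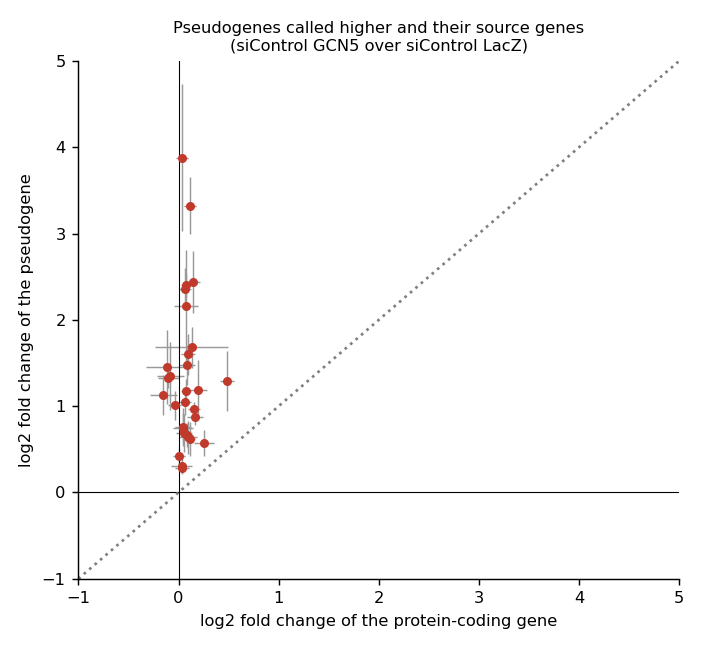
Log2 fold change (siControl GCN5 over siControl LacZ, TMM-scaled) of pseudogenes called higher, on the vertical axis, against that of the protein-coding gene each one copies, on the horizontal axis, with SE bars; the dotted line marks equal change. The pairs rise from 0.28 to 3.88 on the vertical axis while the source genes stay between -0.15 and 0.48.

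Of 369 long non-coding RNAs tested, 6 rose (1.63%) and 15 fell (4.07%), beside 5.45% higher and 4.15% lower among all tested genes, so the lower share was near that of all genes. Kcnq1ot1, the antisense RNA that silences an imprinted domain, stood at 6.76, 7.06 and 6.09 CPM in siControl GCN5 against 16.0, 7.59 and 13.3 CPM in siControl LacZ libraries (log2 fold change -0.88 ± 0.25, edgeR adjusted p = 0.028). The closest libraries nearly met, and its call was lost without LacZ replicate 1 or 3 (edgeR adjusted p = 0.14 and 0.079) and without GCN5 replicate 1, 2 or 3 (0.098, 0.083 and 0.12). It overlaps Kcnq1 on the other strand, and use of the strand in counting is not given in the sources used here. Also lower were the lncRNAs 2700054A10Rik and Gm41032, with log2 fold changes of -1.08 ± 0.25 and -1.02 ± 0.21.

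The line difference was partly shared with the siHsf1 libraries, which are separate from the 6 compared but come from the same 2 lines and entered the same fit. Of the 1170 genes called with control siRNA, 833 were called in the same direction between siHsf1 GCN5 and siHsf1 LacZ libraries, which is 71.2% of the control-siRNA calls and 15.2% of the 5465 calls (44.8% of all tested genes) under siHsf1. A further 57 were called in the opposite direction and 280 were not called there. The difference between the contrasts was itself called for 379 of the 1170 and for 2675 of all tested genes (21.9%), and for 48 with spike-in scaling. Srsf1 (log2 fold change 2.88 with control siRNA and 2.90 under siHsf1), Rbmx (1.98 and 2.06), Ly6c1 (-1.82 and -2.10) and Mmp9 (1.94 and 2.06) were called in both contrasts, in the same direction. Relative to the LacZ line, Acta2 was higher with control siRNA (1.63) and lower under siHsf1 (-0.70). So were Wisp2 (0.87 and -0.85), Myl9 (0.92 and -1.72) and Ltbp2 (0.63 and -0.63), and Cdkn1a did the reverse (-0.55 and 0.74). From control siRNA to siHsf1, mean CPM in the LacZ line went from 11.9 to 49.4 for Acta2 and 29.8 to 86.4 for Wisp2. It went from 4.03 to 23.4 for Myl9, 92.6 to 225 for Ltbp2 and 82.9 to 33.9 for Cdkn1a. The GCN5 line moved less, for example from 36.7 to 30.4 for Acta2 and 7.64 to 7.08 for Myl9.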

How the data were processed

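RNA libraries of 2 MEF lines with control siRNA were compared, 3 per line. The authors deposited whole-number counts per gene for 41608 genes and 92 ERCC transcripts, and FPKM from the same libraries, used here only to set levels of different genes side by side. Per the submitters' processing notes, HISAT2, Bowtie2, SEACR and DESeq2 were used on GRCm38 and mm10. Program versions and the counting step, with its use of strand and shared reads, were not given in the sources used here. Deposited c-MYC peak lists carry the authors' coverage signal, which was not used beyond peak positions.

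All 12 RNA libraries were fitted with 4 group means (8 residual degrees of freedom) by edgeR 4.0.16 robust quasi-likelihood in R 4.3.3 with TMM scaling, after filterByExpr with a minimum count of 10. Adjusted p-values are Benjamini-Hochberg values over the 12187 tested genes. Tables and exact tests used Python 3.11.15, pandas 2.3.3 and SciPy 1.17.1. On simulated counts with 200 changed genes, this fit recovered 79.2% at 1.5-fold, 98.6% at 2-fold and 100% at 4-fold, with 5 false calls. Spike-in scaling used the 23 ERCC transcripts of subgroup B. Their membership of that subgroup was not checked against the manufacturer's list. Scaling by all ERCC transcripts, which does not rest on it, called 196 genes where subgroup B called 183. Other alternatives were all ERCC transcripts, RLE, DESeq2 1.42.0, other filters, the 6 libraries alone, a replicate block, thinned counts, a test against 1.5-fold, and each replicate left out. The depths allow up to 0.372 to 0.831 CPM for a count of 0, from 3 counts of a library. Libraries of 1 group differed by more than counting noise (chi-square per gene 2.03 to 10.3), so none was counted as a duplicate.

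The genes and lists (38 pathway and 9 marker lists) were chosen with earlier results of these data known. The text names Kat2a, Hoxb9, Saa3, Hsf1 and Myc, tested HOX genes, and from the 15 largest changes per direction among called, non-overlapping protein-coding genes whose mean log2 CPM reached 2. Further names are up to 4 called members per list by p, the 3 largest non-coding changes per direction, and genes with at most 3 counts in 1 group and at least 10 in each library of the other. Members of a list that are named without values are its other called genes, and Hmgcs1, Msmo1, Insig1 and the paired pseudogenes were added after their values were seen. A few genes enter the counts and are not reported here by name. Promoter sequences are from the RefSeq table for GRCm38.p6.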

Additional observations from a re-analysis of the deposited data

Results flagged for a closer look

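For 38 of the 112 named genes, the line difference itself differed between control siRNA and siHsf1 (edgeR quasi-likelihood interaction test, calls over all tested genes). Each value below is the log2 fold change of siControl GCN5 over siControl LacZ minus that of siHsf1 GCN5 over siHsf1 LacZ. With TMM scaling 2675 of all tested genes passed this test, and 48 with spike-in scaling, so the size of the set depends on the scaling. What sets the differences was not tested.

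Interferon and antigen presentation genes had positive differences, since they were lower in the GCN5 line by more under siHsf1. The values were 3.08 for Irf7 (-0.76 with control siRNA and -3.84 under siHsf1), 2.96 for Oas1a, 2.74 for Oas3, 1.75 for Rsad2, 1.74 for Nlrc5 and 1.36 for B2m. For each of these genes the LacZ line was higher after siHsf1, and the GCN5 line moved less. Mean Irf7 in the LacZ line went from 26.5 CPM with control siRNA to 188 CPM, and in the GCN5 line from 15.7 to 13.1 CPM. Mean B2m went from 353 to 800 CPM in the LacZ line and from 285 to 253 CPM in the GCN5 line. The acute-phase genes Saa3 (1.91) and Lcn2 (0.66) had the same sign, and so did the adhesion and chemokine genes Cx3cl1 (0.58) and Vcam1 (0.33).

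Contractile and matrix genes that were above the LacZ line with control siRNA and below it under siHsf1 were Myl9 (2.64), Acta2 (2.33), Wisp2 (1.73) and Ltbp2 (1.27). Their levels differed between the siRNAs mainly in the LacZ line. Fmod (1.41), Col6a2 (0.30), Bmp4 (1.17), Vegfc (0.93), Lgr6 (0.50) and Ly6a (0.45) were also positive, and Podxl was negative (-1.15).

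Lipid genes were mostly negative, being higher in the GCN5 line by more under siHsf1. The values were -0.36 for Sqle, -0.69 for Scd2, -0.50 for Fasn, -0.41 for Acly and -1.82 for Acsbg1, while the exporter Abca1 was positive (0.91).

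Among regulators, the differences were -0.81 for Kat2a, -0.88 for Myc, -0.41 for Hsf1 and -1.29 for Cdkn1a. Chaperones gave -0.47 for Ahsa1 and 0.34 for Cryab. Glycolysis genes gave -0.41 for Ldha, -1.43 for Eno3 and -0.24 for Tpi1. Hoxa9 gave 0.57 and the pseudogene Gm5526 1.26.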

How the results depend on the processing

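The scaling decided most. With ERCC subgroup B and all ERCC scaling, 183 and 196 genes were called with control siRNA, 663 and 743 under siHsf1, 41 and 44 list members, where TMM called 236, and 48 interactions with subgroup B. The test against a 1.5-fold change called 146. Pseudogene calls numbered 58 with TMM, 19 and 20 with the 2 spike-in scalings and 24 against 1.5-fold.

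Sign turned with subgroup B and all ERCC scaling for Eny2 (-0.03 and -0.01), Kat2a (-0.20 and -0.18), Ahsa1 (-0.09 and -0.08), Hspa13 (-0.06 and -0.04), Acly (-0.02 and -0.01), Hsf1 (-0.37 and -0.35), Hoxa7 (-0.17 and -0.15) and Hoxa9 (-0.11 and -0.09). Hsf1, near 0, was also -0.01 with thinned counts and ran from -0.02 (without GCN5 replicate 3) and -0.01 (without GCN5 replicate 1) to 0.08 (without GCN5 replicate 2). Of 97 called genes in the text, 46 were called in every alternative.

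RLE called 1172 genes, DESeq2 877, the 6 libraries alone 878, thinned counts 944, no filter 1279 and a minimum count of 30 gave 1101, where the chromosome 10 median was -0.12. Leaving out 1 replicate gave 800 to 1312 calls with control siRNA, 4710 to 4974 under siHsf1, 2143 to 2807 interactions, 173 to 243 list members and a spike-in ratio of 1.12 to 1.45. At an unadjusted p under 0.05, 1406 genes were higher and 1232 lower.

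The labels tie same-numbered replicates by their number alone. Deviations of same-numbered libraries correlated at r = -0.06 to 0.10, and 8 of 12 libraries were closest to their own number. The ERCC share was lowest in replicate 1 and highest in replicate 2 in siControl GCN5, siControl LacZ and siHsf1 LacZ, but not in siHsf1 GCN5 libraries. A pairing by number is therefore not excluded. A fit with the replicate number as a block called 1257 genes, Kat2a among them (adjusted p = 0.044). Depth limits low genes most, since the GCN5 libraries hold fewer counts.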

Other observations

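Calls were spread over all chromosomes, with chromosome medians of the log2 fold change between -0.05 and 0.05 apart from chromosome 10 (-0.11, with 22 genes higher and 59 lower of 572), chromosome 14 (-0.09) and the mitochondrial genome (-0.11). Chromosome 10 had 14.2% of its tested genes called. Chromosome 11 had 12.9% called, with 89 genes higher and 40 lower of 1003. In 475 windows of 25 neighbouring tested genes the median ran from -0.37 to 0.28. The highest window lay on chromosome 11, from 107033081 to 113752543 (Bptf to Cdc42ep4, GRCm38), where 12 genes were called higher and none lower, and its median was 0.15 under siHsf1. Windows before it on that chromosome, from 102684684 to 105283959 and from 105179020 to 107030446, had medians of 0.20 and 0.16. They held 7 and 6 genes called higher and none lower. The lowest window lay on chromosome 17, from 34028266 to 35557180, with 1 gene called, and its median was 0.19 under siHsf1.

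A c-MYC peak of the deposited Hsf1 WT list lay within 1000 bases of the gene start for 71.4% of higher genes, 79.4% of lower genes and 77.1% of all tested genes. In the Hsf1 CKO list the shares were 31.5%, 33.0% and 35.1%. The WT list holds 220037 peaks and the CKO list 6386, so shares can be set side by side within a list only. These peaks come from other MEF samples of the series, with 1 list per genotype, so the spread between the 2 samples of a genotype is not seen in them.

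In the GCN5 line 4 genes had at most 3 counts over its 3 control-siRNA libraries with at least 10 counts in each LacZ library, and no gene showed the reverse. The rule takes counts without regard to depth, and the GCN5 libraries are shallower, so the reverse was harder to meet. Hoxc9, with 8, 16 and 16 counts in siControl GCN5 and 3 summed over siControl LacZ libraries, missed it narrowly. The imbalance is therefore not read as a difference between the lines. The 4 genes were picked by these same counts, so their ratios and intervals are a description and no test. Serpinb9d, a serine protease inhibitor of the serpin B9 family, had 2 counts in siControl GCN5 and 43 in siControl LacZ libraries, a depth-adjusted ratio of 0.0983 (95% counting interval 0.0115 to 0.377). Rnf167, an E3 ubiquitin ligase of endosomes, had 3 and 85 counts (ratio 0.0746, 0.0151 to 0.226), though its edgeR adjusted p was 0.24. That outcome depended on the fit, since Rnf167 passed with the 6 libraries alone (edgeR adjusted p = 0.0034). It also passed with subgroup B and all ERCC scaling (edgeR adjusted p = 1e-05 and 9.2e-06). Pgbd5 had 3 and 41 counts (ratio 0.155, 0.0306 to 0.485), and Gpc6, a glypican, had 3 and 38 counts (ratio 0.167, 0.0330 to 0.526). The Pgbd5 call was lost without LacZ replicate 1 or 3 (edgeR adjusted p = 0.052 and 0.065) and without GCN5 replicate 1 or 2 (0.1 and 0.14). With DESeq2 the calls of both Serpinb9d and Pgbd5 were lost (DESeq2 adjusted p = 0.054 and 0.09).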
